A study of Mus musculus with 10 samples.

Results

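The nuclear genes of oxidative phosphorylation were examined in the hearts of 10 *Rit1* M90I/+ mice, 5 given vehicle control and 5 given trametinib. They were taken as the protein-coding rows whose names begin with Nduf, Uqcr or Atp5, the 4 succinate dehydrogenase genes *Sdha* to *Sdhd*, *Cyc1*, and the genes named Cox4 to Cox8 followed by a letter. This gave 95 rows of the 54532 in the table, with 94 names, because *Atp5o* has 2 rows. Grouped by the complex that each protein belongs to, there were 36 subunits of complex I, 8 Ndufaf assembly factors of complex I, 4 subunits of complex II, 9 of complex III, 18 of complex IV, 17 of complex V and 3 related proteins. *Ndufa4* was counted with complex IV, where its protein is now placed, and the related proteins were *Ndufa4l2*, *Cox7a2l* and *Atp5s*.

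The respiratory chain passes electrons from NADH and succinate through complexes I and II to ubiquinone, on to complex III and cytochrome c, and finally to oxygen at complex IV. Complexes I, III and IV pump protons out of the mitochondrial matrix, and complex V, the ATP synthase, uses their return to make ATP. The heart draws most of its ATP from this route. Most subunits are encoded in the nucleus and imported, while a small set at the core of complexes I, III, IV and V is encoded by the mitochondrial genome. Several subunits of complex IV exist as a form found in heart and skeletal muscle and a form found in most other tissues.

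All 10 mice carried a germline heterozygous M90I variant of *Rit1*, which encodes a RAS-related GTPase, from a conditional allele recombined by a cytomegalovirus-Cre deleter, so no heart in the comparison was wild type. Treatment began when the mice were 4 weeks old and ran for 20 weeks, with a daily dose of 1 mg/kg of trametinib, an allosteric inhibitor of MEK1 and MEK2 (MEKi), or of vehicle control. Poly(A) RNA of the hearts was sequenced to a depth of 13647167 to 18474002 fragments in genes per heart. The values are FPKM, fragments per kilobase of gene and per unit of library size. Levels between genes thus depend on the assigned gene length, and levels between hearts on the scaling of the libraries. *Xist* ran from 5.16 to 6.85 FPKM with MEKi and did not exceed 0.00662 FPKM with vehicle, and the Y-linked gene *Ddx3y* was at 0 in each MEKi-treated heart and between 10.3 and 12.2 FPKM in vehicle hearts. Treatment and sex-linked transcripts divided the hearts alike and cannot be told apart in any difference given here. All 8 cardiomyocyte markers examined were expressed, with a summed level of 18732 to 25795 FPKM in vehicle hearts and 17965 to 25594 FPKM in MEKi-treated hearts. Of 8 skeletal muscle markers, the fast myosins *Myh4* and *Myh2* were listed at 0 in every heart, and 4 reached a mean of 0.5 FPKM. The summed level of the 8 was 425 to 586 FPKM in vehicle hearts and 442 to 634 FPKM in MEKi-treated hearts. In bulk tissue, fewer cells of a type and less RNA per cell cannot be told apart.

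Vehicle hearts 1 and 3 and MEKi-treated hearts 4 and 5 stood apart from the rest of their groups in these genes, as described below. Results that rest on them are therefore also given without these 4 hearts, an alternative chosen after seeing the data.

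The subunit genes were among the most highly expressed in the heart. They took 6.84 to 9.08% of the fragments of nuclear genes in the vehicle group and 7.55 to 9.02% in the MEKi group, whose range lay inside that of the vehicle group. Of the 100 nuclear protein-coding genes with the highest mean FPKM, 33 were members of this set. The median level by mean FPKM was 226 for complex I, 309 for complex II, 538 for complex III, 492 for complex IV and 313 for complex V, against 17.0 for the 8 assembly factors. The medians of the complexes thus stood above that of the factors that help to build complex I, though a few subunits were as low, and the spread within complex IV, from 1.34 to 2231 FPKM, was the widest of the groups.

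**Figure D1:**
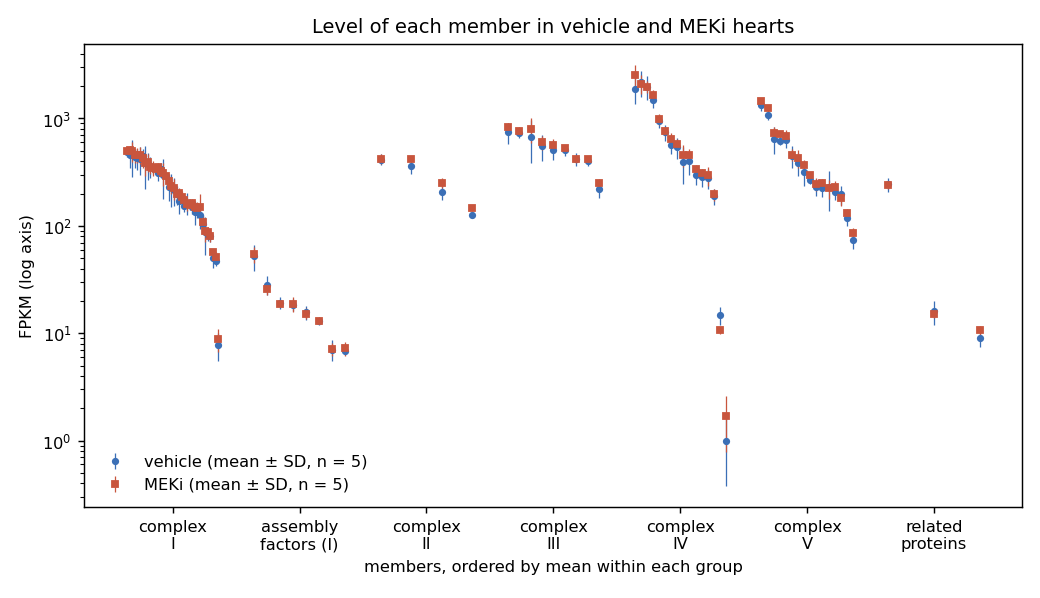
Level of each of the 92 members that passed the expression filter, on a log axis of FPKM, as the mean of the 5 vehicle hearts (blue circles) and the 5 MEKi-treated hearts (red squares) with the SD as whiskers; members are ordered by mean within each complex. Vehicle and MEKi means lie close together for nearly every member, complex IV spans 1.34 to 2231 FPKM, and the assembly factors of complex I lie at 7.03 to 53.5 FPKM, below most of the subunits.

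The 3 genes with the highest means in the set were muscle isoforms of complex IV. *Cox6a2* had a mean of 2231 FPKM, *Cox7a1* of 2140 FPKM and *Cox8b* of 1972 FPKM, and *Cox4i1*, the common form of subunit 4, followed at 1572 FPKM. Among the complex V genes chosen by name, the highest encode the beta and alpha subunits of the catalytic head, *Atp5b* at 1393 FPKM and *Atp5a1* at 1169 FPKM. The lowest was *Atp5l*, which encodes subunit g of the membrane part, at 79.9 FPKM. In complex III the small subunit gene *Uqcr10* was highest at 785 FPKM and *Uqcrc2*, encoding a core protein, lowest at 237 FPKM. In complex II *Sdhb*, the iron-sulfur subunit, was highest at 418 FPKM and *Sdhc*, a membrane anchor, lowest at 137 FPKM. In complex I the accessory subunit gene *Ndufb2* was lowest at 8.30 FPKM.

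Levels between genes depend on the length by which each was divided. *Ndufb2* was divided by 5628 bases and *Atp5l* by 6443 bases, although their coding regions are 315 and 309 bases long, so both low values come with a long assigned gene. Sequence shared with other genes is a second limit, because reads that match several genes may be lost or split. Of the 95 rows, 43 shared at least one stretch of 50 coding bases with a transcript of another gene, mostly a processed pseudogene, and 16 shared more than 50% of such stretches. For *Atp5g2*, *Atp5l*, *Cox7c* and *Ndufb4* every stretch was shared, also at 100 bases, and the levels of these 4 genes are uncertain for that reason. *Cox7b2* was between 0 and 0.879 FPKM, *Cox8c* was at 0 in each heart, and the second *Atp5o* row was at 0 in each heart. These 3 rows did not pass the filter of a mean of 0.5 FPKM and were not tested, which left 92. *Cox7b2* and *Cox8c* are isoforms best known from testis, as is *Cox6b2*, which passed the filter at a mean of 1.34 FPKM on 3 to 56 fragments per heart.

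The promoters of a muscle isoform and of its common counterpart are shown for the 2 pairs in which both were found in the promoter table, since the muscle form was several times more abundant in each pair. Each window runs from 250 bases before to 50 bases after the start of the gene in RefSeq, on the GRCm38.p6 build and on the strand of the gene, and covers chr7:30183921-30184220 (plus strand) for *Cox7a1*, chr9:79759804-79760103 (minus) for *Cox7a2*, chr7:140900397-140900696 (minus) for *Cox8b* and chr19:7217567-7217866 (minus) for *Cox8a*. Capitals mark the letters of the motifs searched, given after the sequences.
Cox7a1: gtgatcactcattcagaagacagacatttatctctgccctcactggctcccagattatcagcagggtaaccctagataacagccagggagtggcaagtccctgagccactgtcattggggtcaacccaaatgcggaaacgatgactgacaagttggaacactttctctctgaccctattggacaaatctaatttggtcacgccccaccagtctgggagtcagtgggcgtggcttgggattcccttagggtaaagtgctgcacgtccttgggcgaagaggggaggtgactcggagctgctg
Cox7a2: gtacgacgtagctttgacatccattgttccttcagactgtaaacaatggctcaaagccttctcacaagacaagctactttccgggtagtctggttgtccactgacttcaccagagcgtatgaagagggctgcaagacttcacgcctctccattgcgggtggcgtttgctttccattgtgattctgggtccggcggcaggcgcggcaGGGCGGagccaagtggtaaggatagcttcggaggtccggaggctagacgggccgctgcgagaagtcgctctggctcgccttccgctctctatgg
Cox8b: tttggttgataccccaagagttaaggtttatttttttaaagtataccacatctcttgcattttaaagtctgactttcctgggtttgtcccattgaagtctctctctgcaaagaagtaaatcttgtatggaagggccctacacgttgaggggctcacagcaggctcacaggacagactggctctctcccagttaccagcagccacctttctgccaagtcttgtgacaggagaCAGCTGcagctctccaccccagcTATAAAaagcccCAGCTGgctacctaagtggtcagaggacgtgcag
Cox8a: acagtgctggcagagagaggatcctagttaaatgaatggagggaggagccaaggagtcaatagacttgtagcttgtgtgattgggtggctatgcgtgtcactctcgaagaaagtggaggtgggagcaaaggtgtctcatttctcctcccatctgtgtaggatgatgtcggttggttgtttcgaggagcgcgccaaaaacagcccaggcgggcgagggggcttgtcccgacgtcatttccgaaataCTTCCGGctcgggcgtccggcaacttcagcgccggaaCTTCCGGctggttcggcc

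*Cox8b* held TATAAA once and the E-box CAGCTG 2 times and had 2 CpG dinucleotides in 300 bases, while *Cox8a* held CCGGAAG, the core bound by ETS factors, 2 times on the other strand and had 19 CpG. *Cox7a1* held none of the motifs and had 7 CpG, and *Cox7a2* held GGGCGG, a site of Sp1, once and had 20 CpG. Windows were found for 74 of the 94 gene names, and 27025 genes in all had one, with the first listed window taken for each gene. Both strands were searched for the exact letters. CCGGAAG occurred in 23.0% of the members' windows and in 9.12% of all windows, GCGCATGCG (NRF1, a regulator of respiratory genes) in 13.5% against 1.81%, AAGATGGCG (YY1) in 9.46% against 1.49%, and AAGGTCA (the site of estrogen-related receptors) in 10.8% against 4.66%. GGGCGG occurred in 44.6% against 35.9%. TATAAA occurred in 9.46% against 14.2% and CAGCTG in 8.11% against 16.1%, and CTATTTATA (MEF2) in none of the members' windows against 0.426%. The members' windows held a median of 19.5 CpG, against 7 over all windows, and the shares were not adjusted for this. A match is a run of letters and not a site shown to be bound.

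The comparison of MEKi-treated with vehicle hearts asked whether long inhibition of the kinase downstream of the mutant GTPase was accompanied by a different level of these genes. None of the 92 members passed the threshold after adjustment over all 12602 genes tested (limma, Benjamini-Hochberg adjusted p under 0.05), where 10 genes, or 0.0794%, passed (0.0238% higher and 0.0555% lower). At an unadjusted p under 0.05 there were 4 members, *Sdhc*, *Atp5c1* and *Sdha* with higher and *Cox4i2* with lower values in MEKi-treated hearts, where 7.62% of all genes, 3.67% higher and 3.94% lower, reached this level. No member had groups that did not overlap, against 1.64% of all genes. The log2 fold change was positive for 78 of the 92 members and negative for 14, with a median of 0.10, while 52.1% of all genes tested were positive, with a median of 0.01. Abundant genes in general had positive values in these hearts: among the 314 other nuclear protein-coding genes whose mean reached 100 FPKM, 225 were positive, with a median of 0.09, and among the 73 members at that level 64 were positive, with a median of 0.12. Members share hearts and vary together, so these counts describe the 10 hearts and were given no test. Without vehicle hearts 1 and 3 and MEKi-treated hearts 4 and 5 the median of the members was 0.14 and none was called. In that setting 9 members reached an unadjusted p under 0.05 by limma, as did 1009 of all 12602 genes. These 4 hearts were picked by their values in these members, so the 2 counts are not on equal terms. The median of the members was 0.04 without vehicle heart 3 alone and 0.21 without vehicle heart 1 alone. Markers of other cell types also differed in direction between the groups, with negative values for 6 of 6 macrophage markers (median -0.36, 2 at an unadjusted p under 0.05 by limma; summed level 178 to 321 FPKM in vehicle and 157 to 194 FPKM in MEKi-treated hearts), 6 of 6 tested atrial markers (median -1.32; 192 to 2196 and 143 to 1136 FPKM), 5 of 5 red cell markers (median -0.90; 2899 to 25874 and 2918 to 7386 FPKM) and 5 of 6 endothelial markers (median -0.14; 107 to 178 and 107 to 131 FPKM). Of the 8 cardiomyocyte markers 6 were positive (median 0.10). Of 6 fibroblast markers 3 were positive and 3 negative (median 0.04, 1 each way at an unadjusted p under 0.05 by limma). Of 4 tested adipocyte markers 3 were positive and 1 negative (median 0.82). Of 4 tested skeletal muscle markers 2 were positive and 2 negative (median -0.26, 1 negative at an unadjusted p under 0.05 by limma). The 1 tested brown adipocyte marker was negative (-0.22). None of these markers was called, and their part in the values of the members was not tested.

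**Figure D2:**
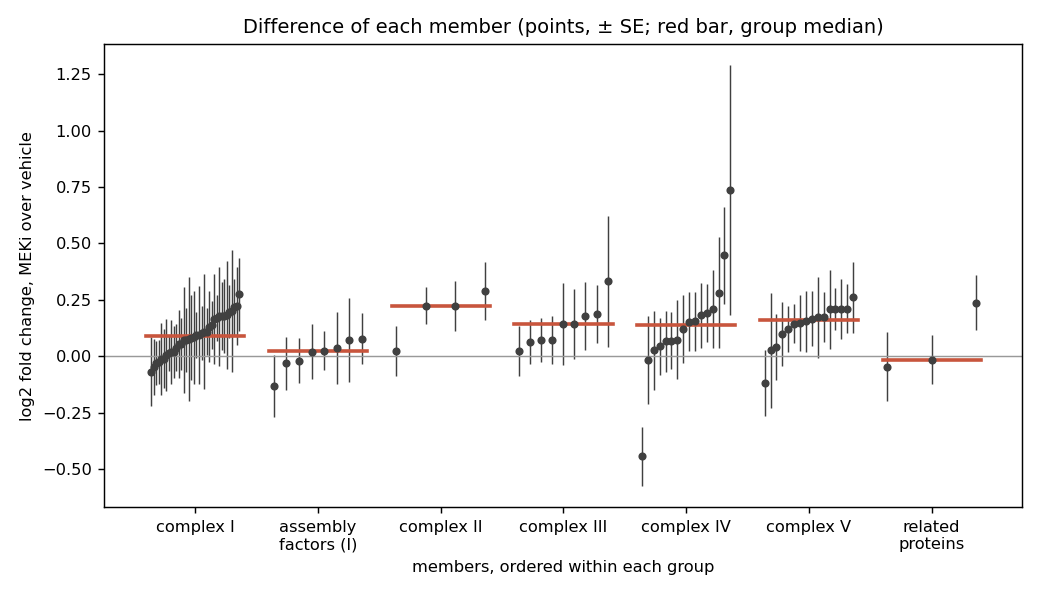
Log2 fold change of each of the 92 members, MEKi over vehicle (points, with the SE from limma as whiskers), ordered within each complex; the red bar is the median of the group and the grey line marks no difference. Most points lie slightly above 0, many but not all of them with whiskers that reach or cross it. *Cox4i2* is the lowest at -0.44, and *Cox6b2*, on few fragments, the highest at 0.74.

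In complex I, 30 of 36 subunits had positive and 6 negative values (median 0.09), and none reached an unadjusted p under 0.05. This median rested on single hearts, at -0.00370 without MEKi-treated heart 4 and 0.21 without vehicle heart 1. *Ndufb8*, an accessory subunit of the membrane arm, was at 231, 158, 124, 203 and 144 FPKM in vehicle hearts 1 to 5 and at 195, 197, 188, 244 and 195 FPKM in MEKi-treated hearts 1 to 5. All MEKi-treated hearts but heart 4 lay within the range of the vehicle hearts, and 3 vehicle hearts lay below every MEKi-treated heart (log2 fold change 0.27, SE 0.16, adjusted p = 0.728 by limma). *Ndufs1*, a core iron-sulfur subunit of the matrix arm, was at 48.2, 50.04, 65.4, 47.8 and 38.7 FPKM in vehicle hearts and at 58.8, 53.8, 53.6, 60.1 and 61.2 FPKM in MEKi-treated hearts, again in the same order. Its highest value was in vehicle heart 3, in which *Ndufb8* had its lowest. The difference (log2 fold change 0.22, SE 0.12) had a limma adjusted p of 0.715, the lowest of the complex. *Ndufb2* differed by 0.18 (SE 0.22). The 8 assembly factors had a median of 0.02, which was negative in several alternatives (-0.02 without vehicle heart 3), with 5 positive and 3 negative, between -0.13 for *Ndufaf1*, which acts on the membrane arm, and 0.08 for *Ndufaf7*, a methyltransferase that acts on the matrix arm.

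All 4 genes of complex II had positive values, with a median of 0.22, and 2 of them, *Sdhc* and *Sdha*, were among the 4 members at an unadjusted p under 0.05. *Sdhc* was at 138, 126, 129, 120 and 119 FPKM in vehicle hearts 1 to 5 and at 148, 147, 151, 160 and 132 FPKM in MEKi-treated hearts 1 to 5. A single MEKi-treated heart, heart 5, lay within the vehicle range, below vehicle heart 1. The means of 126 ± 7.69 and 148 ± 10.2 FPKM (SD, n = 5 each) differed by 0.22 on the log2 scale (SE 0.08, adjusted p = 0.554 by limma, and from 0.318 to 0.875 over the alternatives). *Sdha*, the flavoprotein that oxidizes succinate, was at 210, 220, 251, 202 and 158 FPKM in vehicle hearts and at 256, 224, 227, 262 and 295 FPKM in MEKi-treated hearts. The groups overlapped through vehicle heart 3, the highest of its group, and the log2 fold change was 0.29 (SE 0.13, adjusted p = 0.638 by limma). *Sdhd*, the other membrane anchor, differed by 0.22 like *Sdhc* (SE 0.11, adjusted p = 0.666 by limma), and *Sdhb* differed by 0.02 (SE 0.11).

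In complex III all 9 genes had positive values, with a median of 0.14 and a range of 0.02 to 0.33, and none reached an unadjusted p under 0.05. Without MEKi-treated heart 4 the median was 0.06. *Uqcrc2* was at 222 ± 40.7 and 251 ± 23.9 FPKM in vehicle and MEKi-treated hearts (SD, n = 5), a difference of 0.19 on the log2 scale (SE 0.13, adjusted p = 0.771 by limma). *Uqcr10* was at 742 ± 162 and 827 ± 88.8 FPKM (log2 fold change 0.18, SE 0.15, adjusted p = 0.820 by limma). Both differences were smaller than the SD among vehicle hearts.

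In complex V, 15 of 16 tested genes had positive values, with a median of 0.16, and the exception was *Atp5mpl* at -0.12. *Atp5c1*, the gamma subunit that forms the rotating stalk, was at 675, 644, 617, 572 and 566 FPKM in vehicle hearts 1 to 5 and at 672, 665, 709, 776 and 729 FPKM in MEKi-treated hearts 1 to 5. MEKi-treated hearts 3, 4 and 5 lay above every vehicle heart and the other 2 just below vehicle heart 1. The means were 615 ± 46.5 and 710 ± 45.2 FPKM (SD, n = 5), a difference of 0.21 on the log2 scale (SE 0.09, adjusted p = 0.626 by limma, and from 0.425 to 0.904 over the alternatives). *Atp5a1* had the same log2 fold change, 0.21 (SE 0.11, adjusted p = 0.679 by limma), and *Atp5b* 0.12 (SE 0.10, adjusted p = 0.820 by limma).

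The ring of complex V is made of one protein, subunit c, encoded by 3 genes that differ in their targeting peptides. *Atp5g3* gave 65.0 ± 2.90% of their summed FPKM in vehicle and 65.6 ± 2.21% in MEKi-treated hearts, *Atp5g1* gave 23.0 ± 1.70% and 22.5 ± 1.73%, and *Atp5g2* gave 12.03 ± 1.21% and 11.8 ± 1.02% (SD, n = 5 each). The share of *Atp5g3* lay between 62.4 and 68.3% in all 10 hearts, although the FPKM of *Atp5g3* itself ran from 464 to 928. Of the stretches of 50 coding bases, 100% in *Atp5g2* and 99.7% in *Atp5g1* were shared with other genes, against 0% in *Atp5g3*. Reads of *Atp5g1* and *Atp5g2* may be lost or split, so the shares of the 3 genes are uncertain. The shares also depend on the assigned lengths. *Atp5g1* was divided by 4912 bases, *Atp5g2* by 1675 and *Atp5g3* by 2181, although their coding regions are 408, 438 and 423 bases long. The log2 ratios of *Atp5g1* and *Atp5g2* to *Atp5g3* differed by -0.04 (SE 0.10, exact permutation p = 0.683) and -0.04 (SE 0.12, exact permutation p = 0.675).

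In complex IV, 14 of 16 tested genes had positive values and 2 negative, with a median of 0.14, which was 0.04 without vehicle heart 3 and 0.23 without vehicle heart 1. *Cox4i2*, a form of subunit 4 best known from lung and from the pericytes of small vessels, was at 15.2, 17.96, 11.1, 12.7 and 16.9 FPKM in vehicle hearts 1 to 5 and at 10.6, 12.1, 10.5, 9.86 and 10.3 FPKM in MEKi-treated hearts 1 to 5. All MEKi-treated hearts but heart 2 lay below every vehicle heart, and heart 2 lay above vehicle heart 3 alone. The means of 14.8 ± 2.87 and 10.7 ± 0.857 FPKM (SD, n = 5 each) gave a log2 fold change of -0.44 (SE 0.13), with a limma adjusted p of 0.445 that was the lowest of the members, on 121 to 204 fragments per heart. Over the alternatives its log2 fold change stayed between -0.54 and -0.37 and its limma adjusted p between 0.226 and 0.743. Of 7 mural cell markers 5 had negative and 2 positive values (median -0.19), among them the pericyte genes *Rgs5* at -0.31 and *Kcnj8* at -0.19, none at an unadjusted p under 0.05. The summed level of the 7 was 661 to 825 FPKM in vehicle and 693 to 783 FPKM in MEKi-treated hearts, and their part in the value of *Cox4i2* was not tested.

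*Cox6a2*, the heart form of subunit 6a, was at 2627, 1480, 1295, 1875 and 2228 FPKM in vehicle hearts 1 to 5 and at 1913, 2898, 2652, 3306 and 2040 FPKM in MEKi-treated hearts 1 to 5. MEKi-treated hearts 2, 3 and 4 exceeded every vehicle heart, while hearts 1 and 5 lay inside the vehicle range. The means were 1901 ± 543 and 2562 ± 585 FPKM (SD, n = 5), a difference of 0.45 on the log2 scale (SE 0.22, adjusted p = 0.664 by limma). The other muscle forms differed by less than their SE. *Cox7a1* was at 2167 ± 578 and 2113 ± 413 FPKM (log2 fold change -0.02, SE 0.20) and *Cox8b* at 1974 ± 498 and 1970 ± 251 FPKM (log2 fold change 0.03, SE 0.18). Their common counterparts *Cox6a1*, *Cox7a2* and *Cox8a* differed by 0.07 (SE 0.13), 0.21 (SE 0.17) and 0.15 (SE 0.13).

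A ratio of 2 isoforms within a heart removes a rise or fall that both genes share, and 7 such pairs were compared. The muscle form exceeded the common form in each heart, *Cox6a2* over *Cox6a1* by 7.93- to 16.9-fold, *Cox7a1* over *Cox7a2* by 3.92- to 7.07-fold and *Cox8b* over *Cox8a* by 4.76- to 8.001-fold. For subunit 4 the order was the opposite, with *Cox4i1* above *Cox4i2* in each heart. The log2 ratio of *Cox4i2* to *Cox4i1* was -6.96, -6.26, -6.80, -6.86 and -6.41 in vehicle hearts 1 to 5 and -7.10, -7.16, -7.34, -7.57 and -7.12 in MEKi-treated hearts 1 to 5. The groups did not overlap, though vehicle heart 1 and MEKi-treated heart 1 lay close together. The means of -6.66 ± 0.30 and -7.26 ± 0.20 (SD, n = 5 each) differed by -0.60 (SE 0.16). The exact permutation p was 0.00794, two-sided, the smallest that 5 against 5 hearts can give. The adjusted p over the 7 pairs was 0.0556, so the difference did not pass after adjustment. With the other pairs well above the smallest p, as here, a single pair cannot get a lower adjusted p than this. The adjustment therefore could not decide whether this ratio differed. Without the 4 hearts that stood apart the difference was -0.69, with 3 hearts a group, for which the smallest exact permutation p is 0.10. The ratio of *Cox6a2* to *Cox6a1* was 3.30 ± 0.26 and 3.68 ± 0.38 on the log2 scale (difference 0.38, SE 0.21, exact permutation p = 0.111, adjusted p = 0.259). The ratio of *Cox7a1* to *Cox7a2* was 2.44 ± 0.22 and 2.21 ± 0.17 (difference -0.23, SE 0.13, exact permutation p = 0.111, adjusted p = 0.259), that of *Cox8b* to *Cox8a* differed by -0.13 (SE 0.13, exact permutation p = 0.389), and that of *Ndufa4l2*, a hypoxia-induced relative, to *Ndufa4* by -0.09 (SE 0.14, exact permutation p = 0.635).

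**Figure D3:**
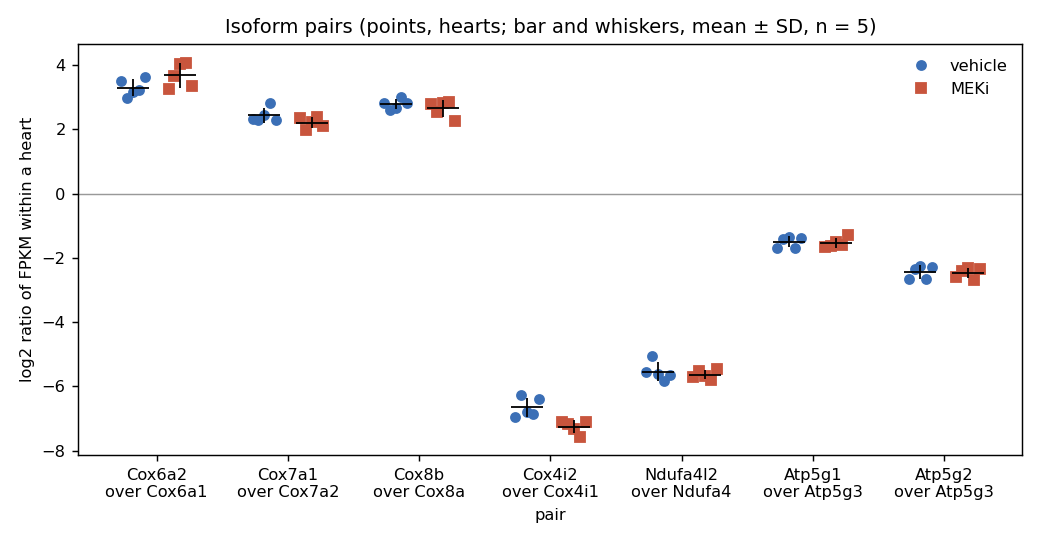
Log2 ratio of FPKM of 7 pairs of related genes within each heart, vehicle (blue circles) and MEKi (red squares), with the mean and SD of 5 hearts as black bars and whiskers. The muscle forms of subunits 6a, 7a and 8 lie above 0 in each heart, and for *Cox4i2* over *Cox4i1* the 5 MEKi-treated hearts, from -7.57 to -7.10, lie below the 5 vehicle hearts, from -6.96 to -6.26.

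Differences between hearts of one group were larger than those between groups. For each heart, the deviation of each member from its mean over the 10 hearts was taken on the log2 scale, and the median over the 92 members was used. It was 0.28, -0.11, -0.33, -0.00 and -0.14 in vehicle hearts 1 to 5 and 0.01, 0.10, 0.03, 0.25 and -0.16 in MEKi-treated hearts 1 to 5. The group means were -0.06 ± 0.22 and 0.05 ± 0.15 (SD, n = 5 each), so that the groups overlapped and vehicle hearts 1 and 3 bounded all others. Vehicle heart 1 had the highest value of the 10 hearts for 45 members and MEKi-treated heart 4 for 30, while vehicle heart 3 had the lowest for 53, vehicle heart 5 for 18 and MEKi-treated heart 5 for 13. The median deviation of all 12602 genes lay between -0.01 and 0.01 in each heart.

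**Figure D4:**
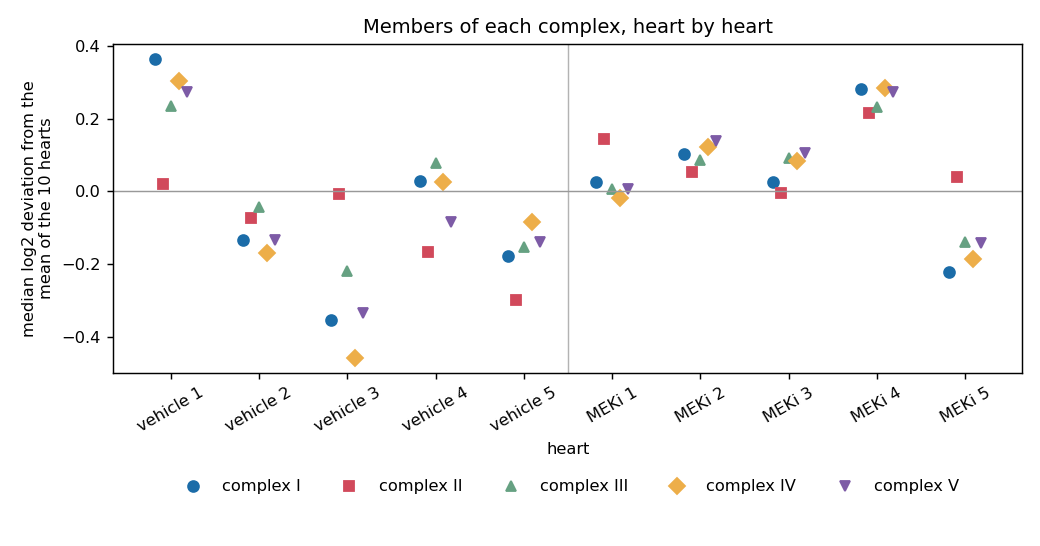
Median log2 deviation of the members of each complex from their mean over the 10 hearts, for each vehicle and each MEKi-treated heart. Complexes I, III, IV and V lie high in vehicle heart 1 and MEKi-treated heart 4 and low in vehicle heart 3 and MEKi-treated heart 5, whereas complex II lies at 0.02 in vehicle heart 1 and -0.01 in vehicle heart 3 but is high, at 0.22, in MEKi-treated heart 4.

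Complexes I, III, IV and V moved together from heart to heart, between 0.23 and 0.36 in vehicle heart 1 and between -0.46 and -0.22 in vehicle heart 3. Complex II had medians of 0.02 and -0.01 in these hearts and its lowest value, -0.30, in vehicle heart 5. Its highest value, 0.22, was in MEKi-treated heart 4, where the other 4 complexes were between 0.23 and 0.28. The assembly factors were at 0.09 and 0.01. The 13 subunits encoded by the mitochondrial genome had their highest summed level in vehicle heart 3, 291988 FPKM, the heart in which the most nuclear subunits were at their lowest.

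The spread between hearts followed the length of the coding region, a property the choice of genes did not use. Members were divided into 32 with a short coding region of 156 to 333 bases, 29 of 336 to 525 bases and 31 of 528 to 2181 bases. The median ratio of vehicle heart 1 to vehicle heart 3 was 1.78 for the short, 1.60 for the middle and 1.15 for the long members, and vehicle heart 1 was higher for 32 of 32, 28 of 29 and 22 of 31. The median ratio of MEKi-treated heart 4 to heart 5 was 1.47, 1.34 and 1.18. The median residual SD on the log2 scale fell along the same order, at 0.29, 0.22 and 0.17. Across the 92 members the Spearman correlation of coding length with the deviation was 0.70 in vehicle heart 3 and -0.57 in vehicle heart 1, and across 11129 other genes it was 0.31 and -0.13. For the members it was 0.52, -0.54 and -0.41 in vehicle hearts 2, 4 and 5 and 0.46, -0.49, -0.24, -0.43 and 0.44 in MEKi-treated hearts 1 to 5. In vehicle heart 5, where 18 members were lowest, long members lay below short ones, at medians of -0.21 and -0.08. For the other genes it was -0.02 and 0.01 in vehicle hearts 2 and 5 and 0.03 in MEKi-treated heart 1. The genes of a heart share 1 library, so these are descriptions. The 4 genes of complex II are of middle or long coding length.

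**Figure D5:**
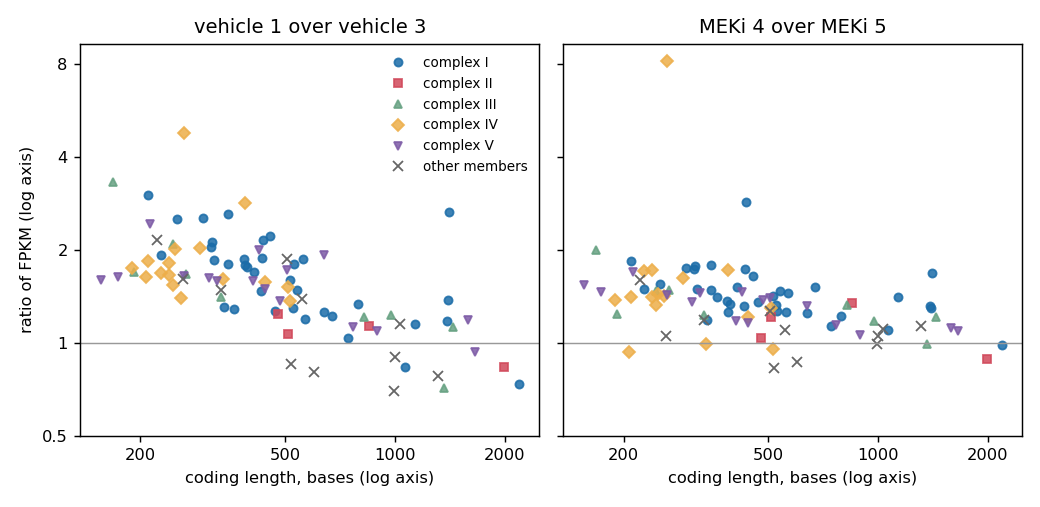
Ratio of FPKM in vehicle heart 1 to vehicle heart 3 (left) and in MEKi-treated heart 4 to heart 5 (right) for each of the 92 members against the length of its coding region in bases, both on log axes; symbols give the complex. Ratios are highest for members with short coding regions and approach or fall below 1 for most of the members with the longest, and the point above 4 in each panel is *Cox6b2*, with few fragments.

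Apart from *Cox6b2*, the widest range among the members was that of *Uqcr11*, a small subunit of complex III, at 1053, 530, 318, 869 and 612 FPKM in vehicle hearts 1 to 5 and at 702, 824, 796, 1134 and 569 FPKM in MEKi-treated hearts 1 to 5. Its highest value was 3.57-fold its lowest. *Ndufa1*, an accessory subunit of complex I encoded on chromosome X, was at 611, 315, 203, 505 and 299 FPKM in vehicle hearts and at 348, 413, 346, 532 and 290 FPKM in MEKi-treated hearts, a range of 3.01-fold. Both were highest in vehicle heart 1 or MEKi-treated heart 4. *Uqcr11* (chromosome 10, 80402997 to 80406830, minus strand) has a coding region of 168 bases and *Ndufa1* (chromosome X, 37187588 to 37191163) one of 210 bases. Both are printed from the start codon, from GENCODE M21 on GRCm38, to show how short these messages are.
Uqcr11: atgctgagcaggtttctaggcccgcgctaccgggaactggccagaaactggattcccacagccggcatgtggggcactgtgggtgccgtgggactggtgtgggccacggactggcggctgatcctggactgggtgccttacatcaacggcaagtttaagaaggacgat
Ndufa1: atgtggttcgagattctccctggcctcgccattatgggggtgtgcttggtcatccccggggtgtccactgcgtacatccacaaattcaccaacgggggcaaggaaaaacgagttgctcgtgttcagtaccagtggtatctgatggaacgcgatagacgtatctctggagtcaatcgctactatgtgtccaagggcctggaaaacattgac

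Among the 31 members with long coding regions, 22 were higher in vehicle heart 1 than in vehicle heart 3, as the short members were, and 9 were lower. *Uqcrc2* was highest of all hearts in vehicle heart 3, at 281 FPKM, against 201 FPKM in vehicle heart 1, and *Ndufs1* likewise at 65.4 against 48.2 FPKM. *Sdha* was at 251 FPKM in vehicle heart 3 and had its highest value, 295 FPKM, in MEKi-treated heart 5, where most members were low. Other long members had ratios like those of the short ones, among them *Ndufv3*, with a coding region of 1404 bases, at 2.65. With a trend of log2 FPKM on coding length removed from each heart, an alternative chosen after seeing the data, the median residual SD of the members went from 0.22 to 0.17. It was 0.25 over all 12602 genes before and 0.23 over the 11234 protein-coding genes of the alternative, so these 2 values cover different genes. With the trend removed the median log2 fold change of the members was 0.06, that of complex II 0.19 and that of complex V 0.12, and none of the members was called. The part of coding length, or of library preparation, in the differences between groups was not tested.

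The rest of the pathway was described in the same way. Of the 13 subunits encoded by the mitochondrial genome, 10 had negative and 3 positive values, with a median of -0.20, and none reached an unadjusted p under 0.05. *mt-Nd5* ran from 4094 to 17015 FPKM in vehicle hearts and from 7942 to 9493 FPKM in MEKi-treated hearts, so one group contained the other. Of 17 genes for cytochrome c and coenzyme Q synthesis, 9 had positive and 8 negative values (median 0.03), and *Coq8a*, an atypical kinase needed to make coenzyme Q, was at 63.6 ± 5.74 and 84.2 ± 17.8 FPKM (SD, n = 5), a difference of 0.38 on the log2 scale (adjusted p = 0.557 by limma). Of 39 tested assembly factors of complexes I to V other than the Ndufaf genes, 29 had positive and 10 negative values (median 0.11). Those at an unadjusted p under 0.05 were the complex IV factors *Cox20*, at 0.628 ± 0.568 and 1.34 ± 0.532 FPKM, and *Cox19*, at 16.4 ± 2.31 and 13.6 ± 1.11 FPKM, and the complex I factor *Tmem126b*, at 8.53 ± 0.563 and 7.26 ± 0.641 FPKM in vehicle and MEKi-treated hearts (SD, n = 5 each), with limma adjusted p of 0.543, 0.606 and 0.569. Of 17 tested transcriptional regulators of mitochondria, 9 had positive and 8 negative values (median 0.01). *Ppargc1a*, the coactivator PGC-1alpha, was at 9.40 ± 2.65 and 9.53 ± 2.04 FPKM, and its relative *Pprc1* at 1.74 ± 0.279 and 1.32 ± 0.254 FPKM (SD, n = 5), a difference of -0.38 on the log2 scale (adjusted p = 0.628 by limma). None of the genes in these 4 lists was called after adjustment over all genes.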

How the data were processed

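Hearts of 5 vehicle-treated and 5 MEKi-treated mice were grouped by their labels. The authors deposited FPKM per gene and heart, with gene length, coordinates and biotype. The submitters' processing notes name fastp, STAR 2.5, HTSeq 0.6.1 and the mm10 build; the annotation release and read length are not given in the sources used here. Of 54409 genes with a GENCODE M21 identifier, 98.3% had the same coordinates there, as did 89 of the 95 rows studied. FPKM multiplied by gene length, then divided by the smallest positive value of this product in each heart, gave whole fragments. They were used for depth, for the fragment counts given, for the simulated data and for the voom alternative. No label says which hearts came from separate litters, and p-values measure the spread between hearts.

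The groups were compared in limma 3.58.1 (R 4.3.3; lmFit, then eBayes with a trend) on log2(FPKM + 0.1), two-sided, over the 12602 genes whose mean reached 0.5 FPKM, with Benjamini-Hochberg adjustment over all of them and a threshold of 0.05. This scale understates changes of low genes. The fit was tested on simulated data. Isoform ratios were compared by an exact permutation test over the 10 hearts. Summaries used Python 3.11.15, numpy 2.4.6, pandas 2.3.3 and scipy 1.17.1. Coding lengths came from GENCODE M21 and promoter windows from RefSeq (GRCm38.p6).

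The members, gene lists, tests and alternatives were chosen with earlier results of these data known. Members named singly are those with the lowest p and the highest and lowest mean in each complex, those of the isoform pairs, those under the filter and, in other lists, up to 3 genes with an unadjusted p under 0.05. *Uqcr11*, *Ndufa1*, *Ndufv3*, *Sdhd*, *Atp5mpl*, *Ppargc1a* and *mt-Nd5* were named after their values were seen. 1 member is not reported singly here. Alternatives were other pseudocounts, filters, scalings and moderations, array weights, a replicate block, voom on recovered fragments, and leaving out hearts or genes of X, Y and the mitochondrion.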

Additional observations from a re-analysis of the deposited data

Results flagged for a closer look

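In each complex, the values of the named members were examined for a heart far from the others of its group. MEKi-treated heart 4 lay far above the other 4 for 2 genes. *Atp5g1* was at 288.7 FPKM there and between 233.5 and 245.3 FPKM in the others, and *Ndufb8* was at 244.3 FPKM there and between 187.5 and 196.6 FPKM in the others. In 76 groups of 5 hearts examined, chance would give about 3.8 such values if the groups were independent. Members share hearts and vary together, so this number cannot decide whether the 2 values exceed chance. MEKi-treated heart 4 was also the heart with the highest value for 30 of the 92 members.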

How the results depend on the processing

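None of the 92 members was called in any of the 27 alternatives, and the median log2 fold change of the members stayed positive, from 0.0541 to 0.177, and from 0.0429 to 0.205 when a heart was left out. The number of genes called of all tested, 10, was 2 at a mean of at least 5 FPKM, 18 with array weights, 0 without X, Y and mitochondrial genes (924 at an unadjusted p under 0.05 by limma), 5 without vehicle hearts 4 and 5 and MEKi-treated heart 2, and 5 to 13 when a heart was left out (5 without vehicle heart 2). With the replicate number as a block it was 4, and the same-numbered hearts did not deviate together (correlations -0.15 to -0.02), so they share only a number. Members at an unadjusted p under 0.05 (limma), 4 in the report, were 7 on the TPM scale, 9 with array weights, 2 with the block, and 1 (without MEKi-treated heart 4) to 17 (without vehicle heart 1) when a heart was left out. The count over all 12602 genes moved as well. It was 960 in the report, 1009 on the TPM scale, 1198 with array weights and 771 with the block. Without MEKi-treated heart 4 it was 815, and without vehicle heart 1 it was 1240. The sign turned in at least one alternative for 6 named members, 2 ratios and the medians of 2 groups. The median of complex I was -0.00370 without MEKi-treated heart 4 (highest 0.210, without vehicle heart 1), and that of the assembly factors was -0.0387 without vehicle hearts 4 and 5 and MEKi-treated heart 2, just below 0 without the 4 hearts that stood apart and with array weights, and -0.0225 to 0.0539 when a heart was left out. On the TPM scale *Cox7a1* was at 0.0616 and *Ndufa4l2* at 0.0322. With array weights *Cox7a1* was at 0.00236. Under quantile normalization *Sdhb* was at -0.0462. Without vehicle hearts 4 and 5 and MEKi-treated heart 2, *Cox7a1* was at 0.101 and *Sdhb* at -0.0607. With the coding-length trend removed *Cox8b* was at -0.0279 and *Ndufa4* at -0.00726, and without the 4 hearts that stood apart *Cox8b* was at -0.0344. When a heart was left out, *Cox6a1* ran from -0.0260 to 0.146, *Cox7a1* from -0.133 to 0.0829, *Cox8b* from -0.103 to 0.119, *Ndufa4* from -0.0268 to 0.128, *Ndufa4l2* from -0.135 to 0.0590 and *Sdhb* from -0.0353 to 0.0872. The difference in the log2 ratio of *Ndufa4l2* to *Ndufa4* then ran from -0.165 to 0.0310 and that of *Atp5g2* to *Atp5g3* from -0.0934 to 0.0181. The cause was not tested. The median residual SD of the members was 0.22 on the log2 scale with 5 hearts a group, and most of the differences given here are smaller than that.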

Other observations

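Genes related to these subunits but outside the choice by name were also measured. *Usmg5*, a small subunit of complex V under an older name, was at 1896 FPKM in vehicle and 2063 FPKM in MEKi-treated hearts on average. Its level was above that of *Atp5b*, the highest of the complex V genes chosen by name. *Atpif1*, the inhibitor of the synthase, was at 116 and 122 FPKM. Of 13 rows with matching names that are not protein-coding, 12 are processed pseudogenes. The pseudogene *Ndufab1-ps* was at 87.8 FPKM on average, above the 49.3 FPKM of *Ndufab1* itself, with which it shares coding sequence. *Ndufab1* was divided by 6883 bases, although its coding region is 468 bases long, so the order of these levels depends on the assigned lengths. *Ndufb1-ps*, listed as a long non-coding RNA, was at 101 FPKM.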
